A study of Mus musculus with 9 samples.

Results

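Igfbp2 and Igfbpl1 are 2 of the 190 genes with values for lenses of mixed-background wild type and Sip1 conditional knockout (cKO) mouse embryos. They are the only genes of that list whose symbol starts with Igf. Both were chosen by name for their difference between these groups in the same libraries, so every comparison of their levels between cKO and mixed wild type is a description, and no test of it is given. The study sequenced RNA of lenses at 15.5 days post conception in 9 libraries, 3 per group, with 30 lenses pooled in each. The cKO lenses were Sip1 flox/flox and carried the MLR10Cre transgene, which drives Cre recombinase in lens epithelium and fibre cells from a modified alpha A-crystallin promoter. The mixed wild type lenses were Sip1 flox/flox without Cre, so both of these groups carried the floxed alleles on a mixed background. The inbred wild type group was of the C57Bl/6<har> strain, and its labels name no floxed allele and no Cre. Sip1 is the product of Zeb2, which was not among the 190 genes, so the knockout could not be checked at its target in these tables.

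Insulin-like growth factors (IGFs) signal through the receptor tyrosine kinase encoded by Igf1r to the PI3K-AKT and MAPK arms. Secreted IGF binding proteins hold IGFs in the extracellular space and limit or prolong their access to that receptor, and proteases that cut the binding proteins release the ligand. Igfbp2 encodes a classical member of the family, which also binds integrins through an RGD motif. Igfbpl1 encodes a secreted relative that shares the amino-terminal IGFBP domain. In the lens, IGFs are known to act on epithelial proliferation and on fibre cell differentiation.

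Because Sip1 is a zinc finger protein that binds CACCT motifs, the sequence before each Igfbp2 start is shown with every CACCT, on either strand, in capitals. The sequences are from RefSeq, build GRCm38.p6, strand +, and 1 of the 2 genes, Igfbp2, had entries, with 2 start sites. The first run is chr1:72824230-72824479 and ends at the base before the first start. The second is chr1:72825137-72825321, inside the first intron of the main Igfbp2 transcript, and leaves out the last 65 bases before the second start because GENCODE M21 places an exon there.
Igfbp2 start 1: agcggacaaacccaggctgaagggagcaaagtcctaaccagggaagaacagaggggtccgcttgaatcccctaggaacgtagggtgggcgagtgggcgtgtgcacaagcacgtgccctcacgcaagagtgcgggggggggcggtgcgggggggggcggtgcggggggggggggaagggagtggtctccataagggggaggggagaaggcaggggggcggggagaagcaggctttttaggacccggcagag
Igfbp2 start 2: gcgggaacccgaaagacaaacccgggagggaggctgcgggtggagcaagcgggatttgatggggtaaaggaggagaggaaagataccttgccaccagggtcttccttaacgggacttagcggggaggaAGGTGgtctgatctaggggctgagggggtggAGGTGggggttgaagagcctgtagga

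The first window held 0 matches to CACCT and was GC-rich, at 67.2% against a mean of 53.2% over all 32851 RefSeq windows of 250 bases. The second held 2 matches, both read as AGGTG on the printed strand, at 122 and 91 bases before the second start. CACCT occurred at least once in 46.0% of all windows and at least 2 times in 13.8%. The longer CACCTG, which contains CACCT, occurred in 17.2% of all windows and 0 times in either Igfbp2 window. These matches describe letters, not binding, which was not measured here.

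Levels are given as RPKM, the authors' read count scaled to exon length in kilobases and to the M (mega) reads mapped in the library. Igfbp2 levels were 0.812, 0.640 and 0.651 RPKM in the mixed wild type libraries, against 22.1, 37.9 and 32.6 RPKM in the cKO libraries. All 3 cKO libraries lay above all 3 mixed wild type libraries, and the lowest cKO value was 27.3 times the highest mixed wild type value. Group means were 0.701 ± 0.096 RPKM in mixed wild type and 30.9 ± 8.02 RPKM in cKO (SD, n = 3 each), a 44.0-fold difference. On the log2(RPKM + 0.5) scale, which understates the change of genes this low, the difference was 4.68 (SE 0.17).

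Igfbpl1 levels were 0.915, 1.14 and 0.859 RPKM in mixed wild type, against 28.0, 28.5 and 30.4 RPKM in cKO. The groups again did not overlap, with the lowest cKO value 24.6 times the highest mixed wild type value. Means were 0.972 ± 0.149 and 29.0 ± 1.26 RPKM (SD, n = 3 each), a 29.8-fold difference and a log2 difference of 4.33 (SE 0.10). Of all 190 genes, 100% had groups that did not overlap, 54.2% with cKO the higher, and limma called 99.5% at an adjusted p under 0.05, so nothing is read from the separation of these 2 genes. By fold of mean RPKM, Igfbp2 ranked 13th and Igfbpl1 17th of the 190. The median log2 difference of the 190 genes was 1.37, and the differences of Igfbp2 and Igfbpl1 lay 3.31 and 2.96 above it. The 190 genes were listed because the groups differed, so this median is not a level of no change.

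**Figure D1:**
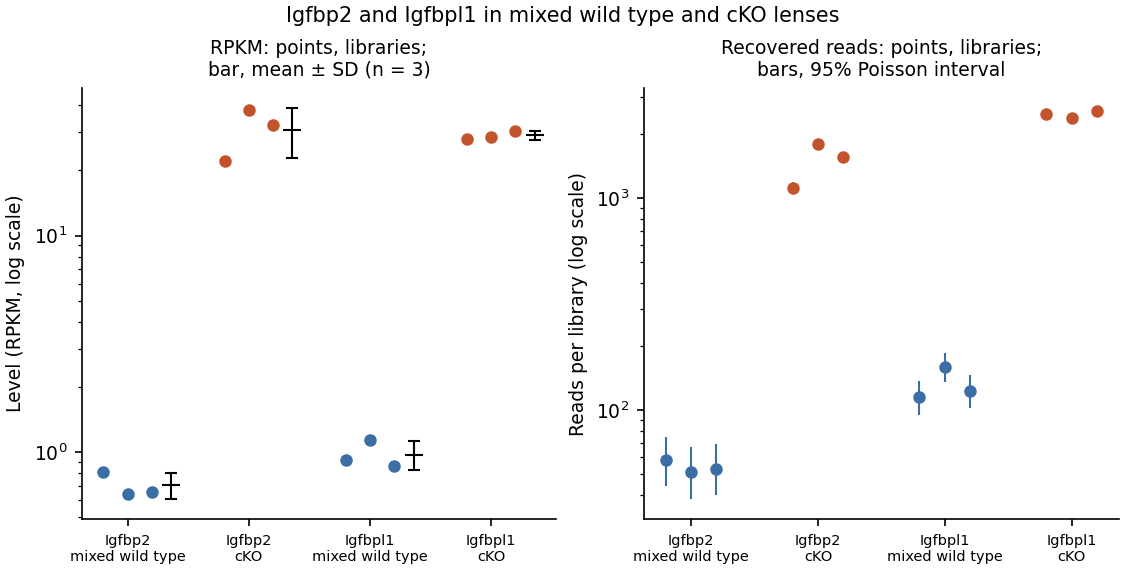
Level in RPKM (left, log axis) and reads recovered from the RPKM steps (right, log axis) of Igfbp2 and Igfbpl1 in each mixed wild type (blue) and cKO (orange) library, with mean ± SD on the left and 95% Poisson intervals on the right. The cKO libraries sit at 22.1 to 37.9 RPKM and the mixed wild type libraries at 0.640 to 1.14 RPKM, with the Igfbp2 value of cKO replicate 1 the lowest of the 6 cKO values shown.

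The reads behind these values could be recovered. RPKM values moved in whole steps of 1 read, and a single exon length between 300 and 6000 bases, apart from its multiples for Igfbp2, gave whole reads in all 6 libraries within 0.1 reads. That length was 1847 bases for Igfbp2 and 3250 bases for Igfbpl1. Both equal the summed length of all exons of the gene in GENCODE M21. For Igfbp2 this is longer than its longest transcript of 1307 bases. Of the 31-base words of the longest transcript, 0.23% for Igfbp2 and 0% for Igfbpl1 occurred in transcripts of other genes. Few reads of these transcripts could therefore be shared with another gene by sequence. The longest transcripts span 1307 of 1847 counted bases for Igfbp2 and 2864 of 3250 for Igfbpl1, and the other exon bases were not checked.

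In the mixed wild type libraries Igfbp2 had 58, 51 and 53 reads, with exact 95% Poisson intervals of 44.0 to 75.0, 38.0 to 67.1 and 39.7 to 69.3. In the cKO libraries it had 1120, 1811 and 1562 reads. Igfbpl1 had 115, 160 and 123 reads in mixed wild type and 2495, 2399 and 2568 in cKO. The intervals cover counting error only. Depth ran the other way, at 38.7 to 44.1 M mapped reads in mixed wild type against 25.9 to 27.4 M in cKO, so both genes had more reads in the shallower libraries. Both genes were low but detected in every mixed wild type library.

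The normalized expression values that the authors deposited beside RPKM, whose unit is not named, kept the order of the groups. For Igfbp2 this score was 42.8, 35.9 and 35.4 in mixed wild type libraries against 1011, 1809 and 1496 in cKO libraries, a 37.8-fold difference of means. For Igfbpl1 it was 85.2, 116 and 84.6 against 2306, 2405 and 2514, a 25.3-fold difference. Per recovered read the score was 0.669 to 0.741 in mixed wild type and 0.903 to 1.003 in cKO for both genes, so the score scales the groups differently from raw reads and from RPKM.

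In cKO, Igfbp2 had a coefficient of variation of 26.0% and Igfbpl1 of 4.36%. The cKO replicate 1 library was lowest for Igfbp2, at 0.584 times its replicate 2 level, while Igfbpl1 in replicate 1 was at 0.982 times its replicate 2 level. Over all 190 genes this ratio of cKO replicate 1 to replicate 2 had a median of 0.982 and quartiles of 0.889 and 1.07, with Igfbp2 3rd from the lowest. Among the other genes named here it was lowest for Elavl4 (0.602), Krt8 (0.700), Dsc2 (0.754), Pappa (0.755) and Crygs (0.804). It was highest for the red cell genes Hba-x (2.14) and Hba-a2 (1.69), followed by Rbp3 (1.28) and Myh7b (1.15), which are not red cell genes. The red cell gene Ermap was at 1.09. The part of these differences between the libraries in the Igfbp2 value was not tested. In mixed wild type the coefficients were alike, 13.7% for Igfbp2 and 15.4% for Igfbpl1.

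The order of the genes by RPKM was the same in the mixed wild type libraries and not in cKO. It rests on exon lengths of 1847 and 3250 bases, against longest transcripts of 1307 and 2864 bases. The order may therefore differ per transcript length, which was not computed. Counting error of the low mixed wild type reads was not carried into the ratios. In mixed wild type, Igfbp2 was below Igfbpl1 in 3 of 3 libraries, with Igfbp2 to Igfbpl1 ratios of 0.887, 0.561 and 0.758 (mean 0.735 ± 0.164, SD, n = 3). In cKO the ratios were 0.790, 1.33 and 1.07 (mean 1.06 ± 0.269), so Igfbp2 was below Igfbpl1 in replicate 1 and above it in the others, and without cKO replicate 2 the mean ratio was 0.930. The ratios of the groups overlap, since cKO replicate 1 lies below mixed wild type replicate 1. In cKO the levels of the genes do not differ beyond the spread of Igfbp2, and they ranked 34th and 36th of the 190 by mean cKO RPKM. In mixed wild type they ranked 157th and 150th.

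Neither gene was among the 7676 genes of the inbred wild type tables that have a symbol of their own, so no inbred level is given for them. The lowest mean in those tables was 2 RPKM, and both genes were below that in mixed wild type. Of the 190 genes, 67 had a mixed wild type mean under 2 RPKM. Of these 67, 8 were in the inbred tables and 67 were higher in cKO. At such a low control level a gene could hardly be listed except by a higher cKO value, so the shared direction of Igfbp2 and Igfbpl1 was largely fixed by the listing.

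The inbred libraries show which other IGF genes were detected in RNA of inbred wild type lenses at this age. They listed 10 genes whose symbol starts with Igf, with levels from 2.51 to 394 RPKM. These are levels in another strain and another set of tables. The libraries were 14.1 to 16.7 M mapped reads deep. Lens identity was clear in them, with 22 of 23 lens marker genes listed, from the crystallin gene Cryaa at 89020 RPKM to the transcription factor gene Pax6 at 11.3 RPKM. They also listed 7 of 11 red cell genes, with Hba-a2 the highest at 392 RPKM. Of 13 endothelial genes 7 were listed, up to 5.62 RPKM, and of 15 periocular mesenchyme genes 1, Pdgfra at 22.5 RPKM. Which cells the IGF transcripts came from was not tested.

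Of the ligands, Igf2, the fetal growth factor, was at 186, 173 and 212 RPKM in the inbred libraries (mean 190 ± 19.7, SD, n = 3) and ranked 158th of 7676 genes. It was the single ligand listed of 7, and Igf1 was not listed. Among receptors, Igf2r, which clears Igf2 from the cell surface, was at 29.3, 34.9 and 42.1 RPKM. The signalling receptor Igf1r was at 6.44, 7.74 and 9.37 RPKM and ranked 3763rd, and the insulin receptor Insr was at 5.11 ± 0.99 RPKM. The ligand was thus listed at a level per length well above its receptors. Inbred replicate 3 was 1.43 and 1.46 times replicate 1 for Igf2r and Igf1r.

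Of 9 binding protein genes, 4 were listed in the inbred libraries. Igfbp7, whose product binds IGFs weakly and sits in basement membranes, was the highest at 395, 394 and 393 RPKM (mean 394 ± 1.10) and ranked 81st. Igfbp5, which binds IGFs and matrix, was at 60.1, 58.1 and 59.5 RPKM. Igfbp4, a soluble inhibitor of IGF action, was at 10.8 ± 0.69 RPKM, and Igfbp3, the main serum carrier, at 2.51 ± 0.29 RPKM. Spread between libraries did not make these neighbours in level overlap. Set beside them in RPKM only, the cKO levels of Igfbp2 and Igfbpl1 fall between the inbred levels of Igfbp4 and Igfbp5, and their mixed wild type levels fall below that of Igfbp3. The tables of the groups were made separately, and this order was not tested.

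**Figure D2:**
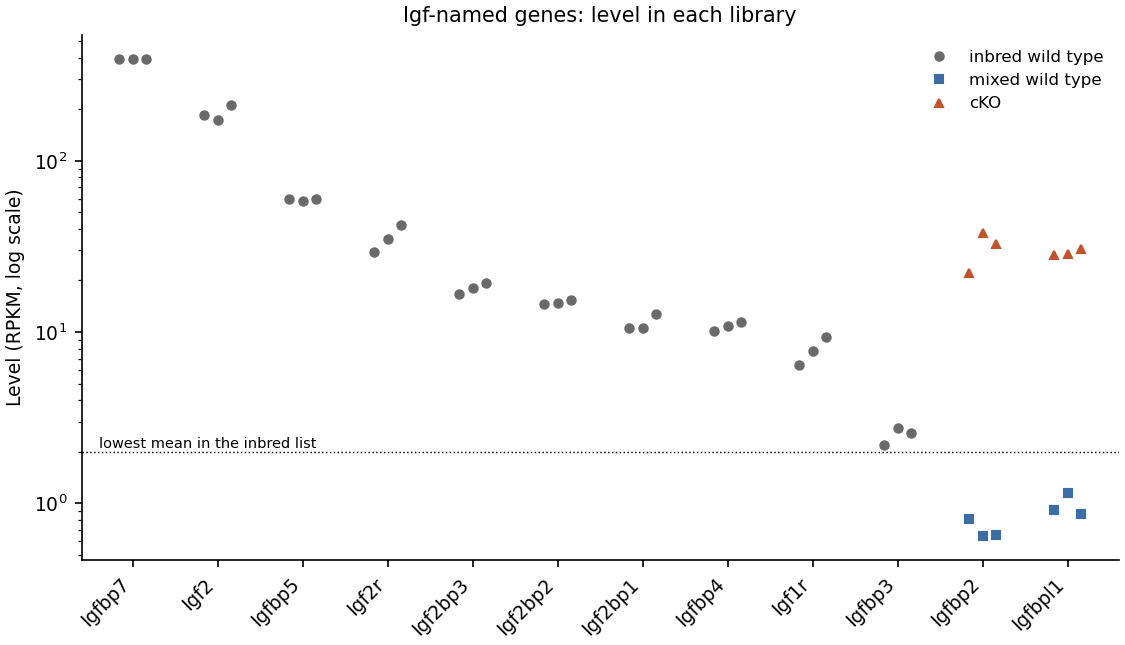
Level in RPKM (log axis) of the 10 Igf-named genes in each inbred wild type library (grey circles), and of Igfbp2 and Igfbpl1 in each mixed wild type (blue squares) and cKO (orange triangles) library. Igfbp7 at 394 RPKM is the highest and Igfbp3 at 2.51 RPKM the lowest of the 10, and the dotted line marks 2 RPKM, the lowest mean in the inbred tables.

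The remaining Igf-named genes encode RNA-binding proteins that bind Igf2 mRNA among others. Igf2bp3 was at 18.0 ± 1.38, Igf2bp2 at 14.9 ± 0.39 and Igf2bp1 at 11.3 ± 1.30 RPKM (SD, n = 3). Downstream, 10 of 13 receptor adaptor genes were listed, with Shc1 the highest at 53.5 RPKM and Irs1, the insulin receptor substrate gene, at 19.2 RPKM. Of the PI3K-AKT-mTOR arm 21 of 22 genes were listed, with Tsc2, a brake on mTOR, at 89.6 RPKM and the kinase gene Akt1 at 50.4 RPKM. Of the MAPK arm 13 of 15 were listed. Of 7 cell surface partners of the Igfbp2 protein 5 were listed, led by the integrin subunit gene Itgb1 at 74.7 RPKM.

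Of 93 genes in the 10 IGF pathway lists, 64 were in the inbred tables and 4 among the 190. Besides Igfbp2 and Igfbpl1 these were 2 genes, Pappa, lower in cKO, and Dusp6, higher in cKO. Limma called both, but it called 99.5% of all 190 genes, 54.2% higher and 45.3% lower in cKO, and these genes were listed because the groups differed. The values of Pappa and Dusp6 are therefore descriptions too, without p-values, and nothing is read from their directions or calls. No ligand, receptor, adaptor or PI3K-AKT-mTOR gene of the lists has values in the mixed wild type and cKO tables used here, so nothing is known of them there.

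Pappa encodes a secreted metalloprotease that cuts IGF binding proteins, Igfbp4 above all, and so frees IGF. Its level was 6.56, 5.17 and 6.35 RPKM in mixed wild type, against 1.29, 1.71 and 1.30 RPKM in cKO. Every cKO library was below every mixed wild type library, and the mean was 4.20-fold lower (log2 difference -1.76, SE 0.12). The log2 difference was -2.84 after quantile normalization and -2.64 with libraries centred on their medians, both over the 190 genes only. Its direction was opposite to that of Igfbp2 and Igfbpl1. In inbred wild type it was at 3.72, 4.90 and 3.85 RPKM, values between those of the other groups. Of the other protease genes the inbred libraries listed Ctsd at 140 RPKM, Htra3 at 108 RPKM and Adam12 at 6.57 RPKM.

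Dusp6 encodes a phosphatase that switches off ERK and is itself induced by MAPK signalling from many receptors. Its level was 7.30, 6.21 and 6.17 RPKM in mixed wild type, against 18.6, 21.3 and 20.2 RPKM in cKO. The groups did not overlap, and the mean was 3.06-fold higher (log2 difference 1.54, SE 0.09). That is 0.17 above the median of the 190 genes, and with libraries centred on their medians over these genes the difference was 0.66. These genes were listed because the groups differed, so their median is not a level of no change. By fold of mean RPKM Dusp6 ranked 97th of the 190, of which 103 were higher in cKO. In inbred wild type Dusp6 was at 7.39, 6.63 and 7.03 RPKM, close to mixed wild type in level.

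**Figure D3:**
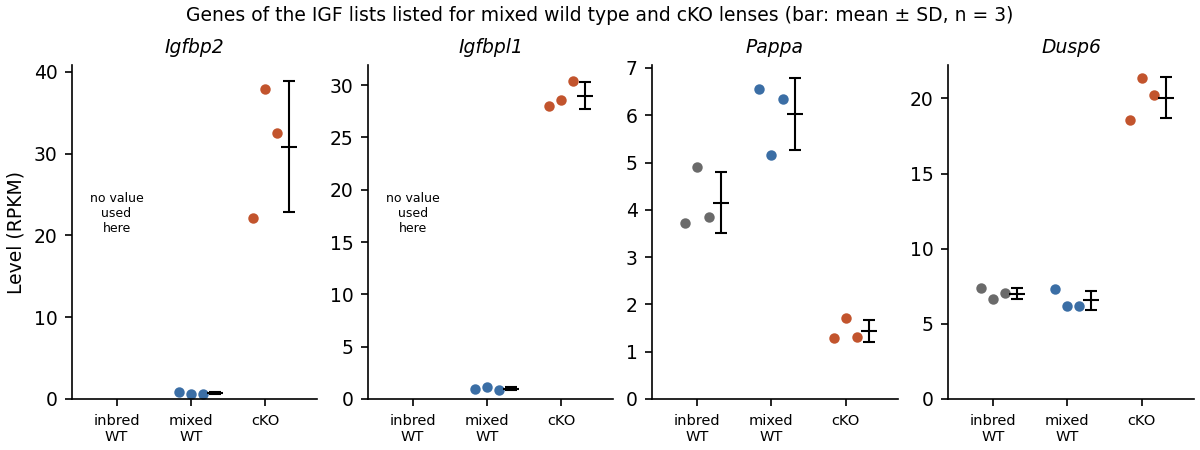
Level in RPKM (linear axes starting at 0, a separate scale for each gene) of the 4 IGF list genes with values in mixed wild type and cKO, with each library as a point and mean ± SD (n = 3) as a bar. Igfbp2, Igfbpl1 and Dusp6 are higher and Pappa is lower in the 3 cKO libraries, at 1.43 against 6.03 RPKM for Pappa.

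Position was examined through RefSeq gene order. Igfbp2 and Igfbp5 are direct neighbours among protein-coding genes of chromosome 1. Igfbp5 was at 59.3 ± 1.01 RPKM in inbred wild type and has no value in the tables of the other groups, so whether the pair moved together was not tested. On the other side of Igfbp2 lies Rpl37a, a ribosomal protein gene. Its value is uncertain, since 49.5% of the 31-base words of its longest transcript occurred in transcripts of other genes. Rpl37a was at 473 ± 36.1 RPKM in mixed wild type and 329 ± 4.88 RPKM in cKO (log2 difference -0.52, SE 0.09). This difference depended on the scaling, at 0.11 after quantile normalization, -1.40 with median centring and -1.65 in the authors' normalized values (pseudocount of 10). Quantile normalization and median centring used the 190 genes only, which were listed because the groups differed. Of the 3 nearest protein-coding genes on either side of Igfbpl1, on chromosome 4, 0 were among the 190. Of these 6 genes Shb, an adaptor gene, was at 5.71 RPKM and Tdrd7, a lens RNA granule gene, at 364 RPKM in inbred wild type. The RefSeq span of Igfbpl1 overlaps that of its neighbour Stra6l, for which no value was used here, and the strand setting of the counting is not given in the sources used here.

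The profiles most like each gene were found by the root-mean-square distance of log2(RPKM + 0.5) over the 6 libraries, each gene centred on its own mean. For Igfbp2 the nearest was Ucma, a cartilage matrix gene, at 0.23, followed by Aass, a lysine breakdown gene (0.30), Igfbpl1 (0.30), Pde6b, a rod phosphodiesterase gene (0.30), and Tnnt1, a slow muscle troponin gene (0.48). The median distance to the other 189 genes was 1.68. For Igfbpl1 the nearest were Aass (0.09), Pde6b (0.11), Ucma (0.23), Uchl1, a neuronal ubiquitin hydrolase gene (0.26), and Tnnt1 (0.27), against a median of 1.51. Igfbpl1 was thus the 3rd nearest to Igfbp2, while Igfbp2 was the 6th nearest to Igfbpl1. Any gene with little spread and a rise of like size on this scale scores as near by this measure, which uses the same 6 libraries as the choice of genes.

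**Figure D4:**
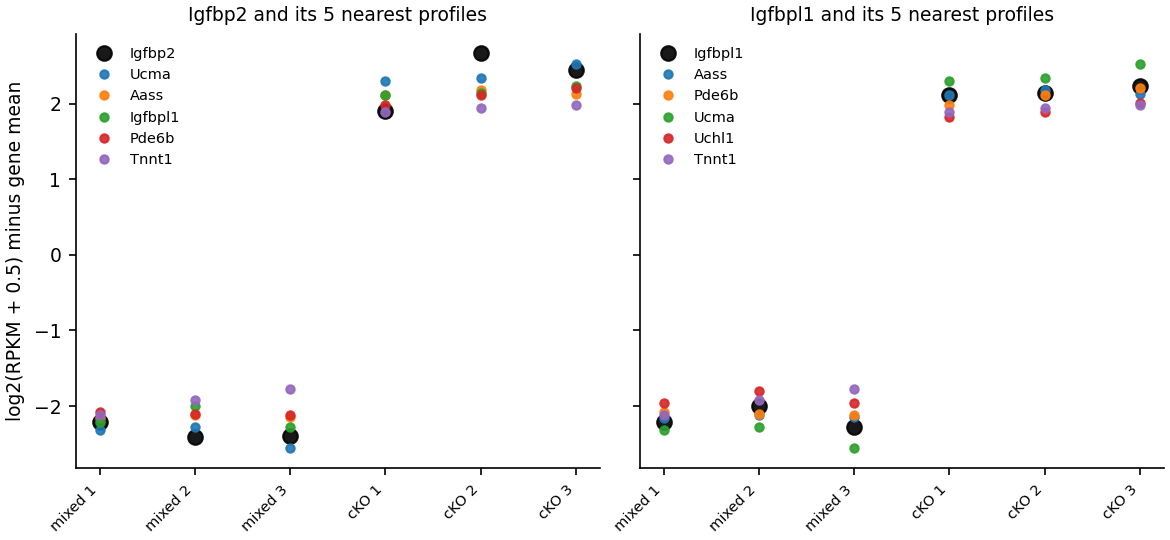
log2(RPKM + 0.5) minus the gene's mean over 6 libraries, by library, for Igfbp2 (left, large black points) and Igfbpl1 (right, large black points) and the 5 genes nearest to each (coloured points). The Igfbpl1 points lie within 0.09 of Aass on average (root mean square), while Igfbp2 is low in cKO replicate 1 relative to cKO replicates 2 and 3.

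Aass levels were 0.129, 0.146 and 0.137 RPKM in mixed wild type, against 11.6, 12.2 and 11.8 RPKM in cKO. Pde6b levels were 0.293, 0.277 and 0.271 RPKM, against 12.7, 14.0 and 15.0 RPKM. Uchl1 was the only one of these 5 neighbours of Igfbpl1 in the inbred tables. Their closeness to Igfbpl1 depended on the scale. By fold of mean RPKM, Ucma was at 232, Aass at 86.3, Pde6b at 49.6, Tnnt1 at 44.2 and Uchl1 at 14.15, against 29.8 for Igfbpl1. The log2 differences of Aass and Igfbpl1 were 3.22 and 3.81 after quantile normalization, and 5.53 and 4.53 in the authors' normalized values (pseudocount of 10).

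Markers of other cell types also differed between the groups, and their part in the values of Igfbp2 and Igfbpl1 was not tested. In bulk lenses more cells of a type and more RNA per cell cannot be told apart. Of 19 retina and ciliary margin genes 2 were among the 190, with Pde6b called higher and Rbp3, a retinoid-binding protein gene, called lower in cKO, and their summed level was 5.23 to 8.35 RPKM in mixed wild type and 15.0 to 16.7 RPKM in cKO. Of 14 neuronal genes 3 were listed, with Uchl1 higher and Elavl4 and Stmn4 lower. All 4 surface ectoderm genes among the 190, of 16, were higher, with sums of 2.06 to 2.71 and 14.9 to 19.6 RPKM. Their mixed wild type means were 0.075 to 1.39 RPKM. Of the 67 genes with a mixed wild type mean under 2 RPKM, 67 were higher in cKO, so this shared direction was largely fixed by the listing. Of 13 endothelial genes Tek was listed and was higher, at 2.51 to 2.82 and 7.84 to 8.61 RPKM. Of 12 muscle genes 3 were listed, with Tnnt1 and Myh7b higher and Actn2 lower, and sums of 13.0 to 15.5 and 64.8 to 72.4 RPKM. The 3 red cell genes of 11 were lower, and 0 of 15 periocular mesenchyme genes were listed. Of all 190 genes, limma called 99.5%, 54.2% higher and 45.3% lower in cKO, so nothing is read from the calls or directions of these markers. Other markers of these lists have no values used here in mixed wild type and cKO.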

How the data were processed

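RNA of pooled lenses was sequenced from libraries made with an Illumina TruSeq RNA kit, per the labels' protocols. The submitters' processing notes name CASAVA 1.8.2. Which aligner, counter and build were used is not given in the sources used here. Each deposited table holds, per the file headers, RPKM and the authors' normalized values (a score of unnamed unit), and the inbred tables hold exon lengths. Symbols were stripped of spaces, 24 inbred rows with repeated symbols were dropped, and 128 genes were shared between table types.

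The depth of each library, and then the members' reads, were recovered from RPKM steps (95.0% to 100% of 40 low values whole within 0.1 reads). Limma 3.58.1 (R 4.3.3) with a mean-variance trend was fitted to log2(RPKM + 0.5) of all 190 genes (mean of at least 1 RPKM), with Benjamini-Hochberg adjustment at 0.05. It was tested on simulated data. Each library is a separate pool per the labels, so p-values measure spread between pools. Cre, depth and any batch cannot be told apart from genotype. Python 3.11.15 did the rest.

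The members, lists and tests were chosen with earlier results of these data known. Named were Igf-prefixed genes, list genes among the 190, the 5 nearest profiles of each member and up to 3 neighbours a side. Alternatives were other scalings, pseudocounts and filters, limma without trend, a minimum of 2-fold, the replicate block and each library left out.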

Additional observations from a re-analysis of the deposited data

How the results depend on the processing

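Igfbp2 and Igfbpl1 stayed higher in cKO under every alternative run, and only the size of the log2 difference moved. Both were chosen for this difference, so nothing is read from the kept direction. Since their groups do not overlap, a pseudocount or a left-out library could not have turned it. The log2 difference was 4.16 and 3.81 (Igfbp2, then Igfbpl1) after quantile normalization and 3.79 and 3.44 with libraries centred on their medians. It was 5.24 and 4.77 with a pseudocount of 0.1, and 4.20 and 3.93 with a pseudocount of 1. In the authors' normalized values, with a pseudocount of 10 added before the log, it was 4.88 and 4.53. Quantile normalization and median centring also moved the median of all 190 genes, from 1.37 to 0.19 and 0.49. Both were computed on the 190 genes only, which were listed because the groups differed. They therefore cannot tell a difference in scale from the differences of the listed genes. Relative to that median the differences were 3.96 and 3.61 after quantile normalization. Median centring takes 1 value from all genes of a library, so there they stayed at 3.31 and 2.96 by construction. With 1 library left out the log2 differences ranged from 4.51 to 4.89 for Igfbp2 and from 4.27 to 4.41 for Igfbpl1. The Igfbp2 to Igfbpl1 ratio was 0.41 in mixed wild type and 0.595 in cKO by the normalized values, which are not per length, and 0.659 to 0.823 and 0.930 to 1.20 by RPKM with 1 library left out. Limma called 171 of 190 genes under quantile normalization, 169 of 190 with a minimum of 2-fold, and 167 of 168 with a mean of at least 2 RPKM. With 1 mixed wild type library left out it called 189 or 190 of 190. With 1 cKO library left out it called 185 of 186 or 186 of 187, since fewer genes passed the filter. Pappa and Dusp6 kept direction and call in all alternatives, but Pappa went from -1.76 to -2.84 (quantile) and -2.64 (median centring), and Dusp6 from 1.54 to 0.66 (median centring). Rpl37a went from -0.52 to 0.11 (quantile, a reversal), -1.40 (median centring) and -1.65 (normalized values), and it lost its call with a minimum of 2-fold. The cause was not tested. Replicate numbers did not pair the libraries: the correlations of same-numbered deviations were -0.10, -0.11 and -0.15, and no library correlated best with its own number. With the replicate block limma called 189 genes, as without it. The log2 differences of Igfbp2 and Igfbpl1 stayed at 4.68 and 4.33 by construction, since each block held 1 library of each group. The low mixed wild type reads, 51 to 160 per library, limit the precision of both folds. For Igfbp2 the spread was larger in cKO, with a coefficient of variation of 26.0% against 13.7% in mixed wild type.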
